A study of Mus musculus with 47 samples.

Results

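The genes described here are 10 genes of T cell costimulation and of noncanonical NF-kB signalling: the surface ligands Cd80, Cd86, Cd274 and Icosl, the TNF receptor family members Cd40, Tnfrsf11a, Tnfrsf11b and Ltbr, and the NF-kB subunits Relb and Nfkb2. They were taken by name, and each of the 10 was found by its Ensembl identifier in both count tables, among 53402 genes in the adult and 55471 genes in the neonatal table. All 10 passed the filter on low counts in both tables, where 19310 adult and 20196 neonatal genes were tested. RNA was sequenced from thymic epithelial cells of C57BL/6 mice that were sorted as DAPI-, CD45-, EpCAM+, Ly51- cells, with high MHC class II in mTEChi and low MHC class II in mTEClo. CD80 protein was not a sort marker. The adult table held 23 libraries from mice aged 4 to 6 weeks: 7 WT and 4 AireKO libraries of mTEChi, and 8 WT and 4 AireKO libraries of mTEClo. The neonatal table held 24 libraries from mice aged 1 to 6 days, with 5 Ctrl and 3 each of EEDcKO, AireKO and AireEEDdKO in mTEChi, and 3 Ctrl, 4 EEDcKO and 3 AireEEDdKO in mTEClo. AireKO mice are deficient in Aire, a regulator of self-antigen genes. EEDcKO mice lack EED, a core subunit of the Polycomb repressive complex PRC2, where Foxn1-Cre is active, which is thymic epithelium, and AireEEDdKO mice lack both. All 8 adult AireKO libraries were from male mice, 9 neonatal libraries pooled male and female mice, and the genotype behind Ctrl is not spelled out in the sources used here.

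Medullary thymic epithelial cells present self-antigens to developing T cells. Antigen recognition is joined by a costimulatory signal when CD80 and CD86 bind CD28 on the T cell, or when ICOS ligand (Icosl) binds ICOS, while PD-L1 (Cd274) binds the inhibitory receptor PD-1. CD40, RANK (Tnfrsf11a) and the lymphotoxin beta receptor (Ltbr) receive TNF family ligands from lymphocytes and signal through the kinase NIK (Map3k14) to process the p100 protein made from Nfkb2 to p52, which pairs with RelB, and this arm is needed for medullary epithelium to mature. Osteoprotegerin (Tnfrsf11b) is a soluble decoy for RANK ligand.

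On the GRCm38 annotation, the ligand genes are Cd80 (chr16:38455561-38496335, + strand), Cd86 (chr16:36603869-36666081, - strand), Cd274 (chr19:29367455-29388095, + strand) and Icosl (chr10:78069302-78083913, + strand). The receptor genes are Cd40 (chr2:165055627-165072948, + strand), Tnfrsf11a (chr1:105780718-105847981, + strand), Tnfrsf11b (chr15:54250619-54278484, - strand) and Ltbr (chr6:125306571-125313885, - strand). The NF-kB subunit genes are Relb (chr7:19606217-19629438, - strand) and Nfkb2 (chr19:46304320-46312385, + strand). Icosl is a close neighbour of Aire (chr10:78030022-78043610, - strand), with 25691 bases between the genes.

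RefSeq start site windows on GRCm38.p6, each holding 250 bases before and 50 bases after a start, were at hand for 6 of the 10 members and for 32851 starts in all. The kB consensus, the DNA motif that NF-kB dimers bind, was searched on both strands. It was found in 4 of the 8 windows of members, 3 of Nfkb2 and 1 of Icosl, and not in those of Cd80, Cd274, Tnfrsf11a and Ltbr, against 8.46% of all windows. A pair of the Nfkb2 windows overlaps and shares a match. The 3 stretches shown hold the Icosl match and those before the first Nfkb2 start. Matched Nfkb2 stretches at chr19:46305449-46305478 and chr19:46305695-46305724, before its other starts, are not shown. Nfkb2 and Icosl rose in mTEChi AireKO at both ages. So did Tnfrsf11a, which had no match, and Relb, which had no window. Capitals mark the bases covered by a match.
Icosl, chr10:78069247-78069276, + strand, match on the reverse strand from -111 to -102 of the start: gagcggaggcGGAGCTCCCCgcctccaacc
Nfkb2, chr19:46304689-46304718, + strand, matches on both strands from -39 to -29 of the first start: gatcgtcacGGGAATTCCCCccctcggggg
Nfkb2, chr19:46304716-46304745, + strand, match on the forward strand from -11 to -2 of the first start: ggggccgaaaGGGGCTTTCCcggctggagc
All 30 bases of each Nfkb2 stretch shown are exonic in the GENCODE annotation, and none of the Icosl stretch lies in an exon. Whether these exons belong to Nfkb2 or to a gene that overlaps it was not read. A match of letters does not show that a site is bound.

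Counting regardless of strand makes 2 members less certain. Exons of other genes on the opposite strand overlap 18.1% of the Nfkb2 exon length (AC114539.1 and Psd) and 14.1% of the Cd274 exon length (AC119228.1), and no other member was overlapped.

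Depth and labels were checked before the comparisons. The adult libraries held 1602125 to 3938588 counts in total and the neonatal ones 1578579 to 4817418. In CPM, the counts scaled to a common library size, Aire had 17.1 to 39.3 CPM in adult mTEChi AireKO and 44.8 to 115 CPM in neonatal mTEChi AireKO, against 464 to 808 CPM in neonatal mTEChi Ctrl. Eed had 10.7, 13.8 and 19.8 CPM in neonatal mTEChi EEDcKO and 20.4 to 38.8 CPM in Ctrl. In 6 adult libraries, all 4 of mTEChi AireKO and replicates 3 and 4 of mTEClo AireKO, no read was counted over 37 mitochondrial genes, so that genotype and this kind of library cannot be told apart in adult mTEChi. Summed over 6 markers of mature mTECs, adult mTEChi WT had 3351 to 3873 CPM and mTEClo WT 1207 to 2203 CPM. Most of these markers, H2-Aa, H2-Ab1, Cd74 and Ciita, belong to MHC class II presentation. The fractions were sorted on MHC class II, so this sum is no independent check. Over 9 dendritic and myeloid markers the sums were 394 to 458 CPM in adult mTEChi WT and 91.0 to 129 CPM in mTEClo WT, with none of the 9 at 0 in every library of these groups, and 512 to 570 CPM in adult mTEChi AireKO, where Siglech was at 0 in every library and, of 8 markers tested, 2 were called higher and 5 lower than in WT. Over 4 B cell markers the sums were 43.1 to 50.9 CPM in adult mTEChi AireKO and 27.9 to 35.8 CPM in WT, and of 3 tested Cd79b was called higher and Ms4a1 lower. Over 6 thymocyte markers they were 43.1 to 56.9 CPM in AireKO and 79.3 to 111 CPM in WT, with 4 of 5 tested called lower. Between these genotypes 26.6% of all genes were called higher and 28.8% lower in mTEChi AireKO. Members such as CD86 and CD40 are also made by dendritic and B cells, and the part of such cells in the levels of any member below was not tested.

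The members span a wide range of levels. Per kilobase of exon, Tnfrsf11b led adult mTEChi WT with 90.6 CPM per kb, followed by Tnfrsf11a with 89.3, Icosl with 83.1, Nfkb2 with 83.0, Cd274 with 64.2, Relb with 56.1, Cd80 with 54.8 and Cd40 with 52.8 CPM per kb. Cd86 at 14.2 and Ltbr at 11.6 CPM per kb closed the order. In adult mTEClo WT the order was another: Tnfrsf11a at 57.4, Nfkb2 at 50.9 and Cd274 at 44.0 CPM per kb came first, Ltbr stood in the middle at 26.6, and Cd80 at 5.45 and Cd86 at 0.428 CPM per kb came last. Tnfrsf11a and Nfkb2 were thus among the first 4 in both fractions, while the ligands Cd80 and Cd86 were lowest in mTEClo.

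**Figure D1:**
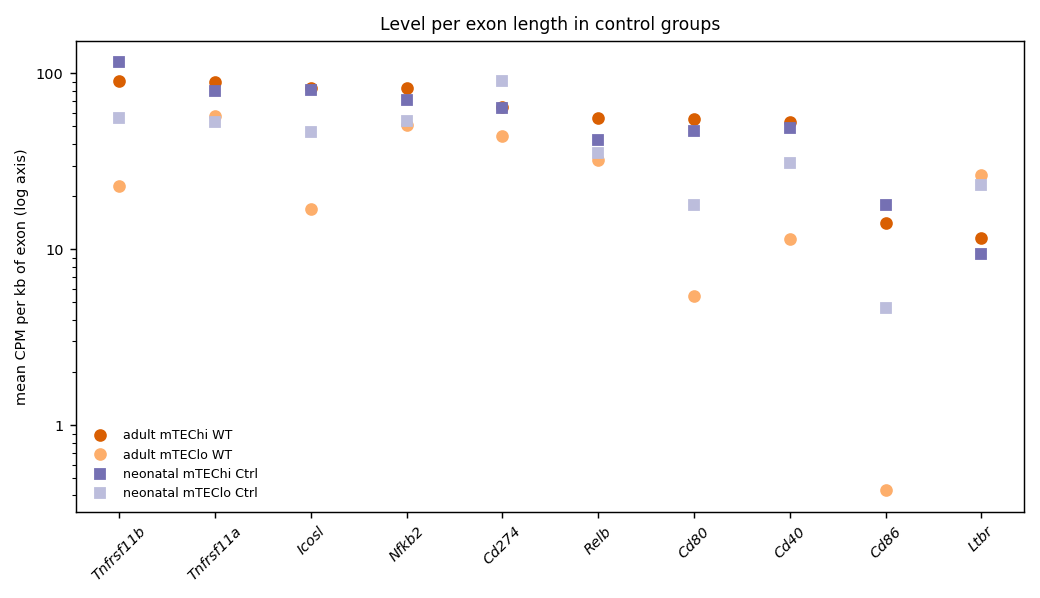
Mean level of each gene in CPM per kilobase of exon (log axis) in adult WT (circles) and neonatal Ctrl (squares) libraries of both fractions, ordered by adult mTEChi WT. Cd86 spans the widest gap, from 0.428 in adult mTEClo WT to 14.2 CPM per kb in adult mTEChi WT, and Ltbr is lower in mTEChi than in mTEClo at both ages.

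How the members differ between the fractions was asked within each genotype. In adult WT, all 10 members differed between mTEChi and mTEClo, 9 higher in mTEChi and 1, Ltbr, lower, and no member's libraries overlapped between the fractions. Of all genes tested, 70.5% were called in this comparison, 36.8% higher and 33.7% lower, and the libraries of 44.4% did not overlap, so that neither count by itself sets the members apart. A call here and below is an adjusted p under 0.05 from the quasi-likelihood F-test of edgeR, where Benjamini-Hochberg adjustment ran over all genes tested. In bulk RNA, fewer cells of a type and less RNA per cell cannot be told apart.

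Cd86 showed the widest gap. Its lowest, median and highest values were 1.01, 1.39 and 2.44 CPM in adult mTEClo WT (n = 8) and 35.7, 52.8 and 61.0 CPM in mTEChi WT (n = 7). Every mTEChi library stood far above every mTEClo library, and the difference was 4.96 ± 0.19 on the log2 scale (± SE; edgeR adjusted p = 1.1e-18). Cd80, the other CD28 ligand, had 14.1, 19.5 and 28.1 CPM in mTEClo WT and 185, 200 and 217 CPM in mTEChi WT, a difference of 3.36 ± 0.15 on the log2 scale (edgeR adjusted p = 1.7e-17). Icosl was 2.31 ± 0.20 and Tnfrsf11b 2.00 ± 0.12 higher on the same scale. Cd40 had 26.5, 39.2 and 45.8 CPM in mTEClo WT and 175, 178 and 192 CPM in mTEChi WT, a log2 difference of 2.22 ± 0.17.

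Smaller differences were found for the other members. Tnfrsf11a was 0.64 ± 0.13, Relb 0.82 ± 0.15, Nfkb2 0.71 ± 0.13 and Cd274 0.54 ± 0.09 higher in mTEChi on the log2 scale. Ltbr went the other way, with 49.8, 62.7 and 72.4 CPM in mTEClo WT and 19.8, 27.8 and 35.9 CPM in mTEChi WT. Each mTEChi library lay below each mTEClo library, and the difference on the log2 scale was -1.16 ± 0.11 (edgeR adjusted p = 2.4e-10). In adult AireKO, all 10 members were again called, 9 higher and Ltbr lower in mTEChi, against 57.5% of all genes called, 29.3% higher and 28.2% lower. Leaving out any 1 library kept the count at 10 in both genotypes.

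**Figure D2:**
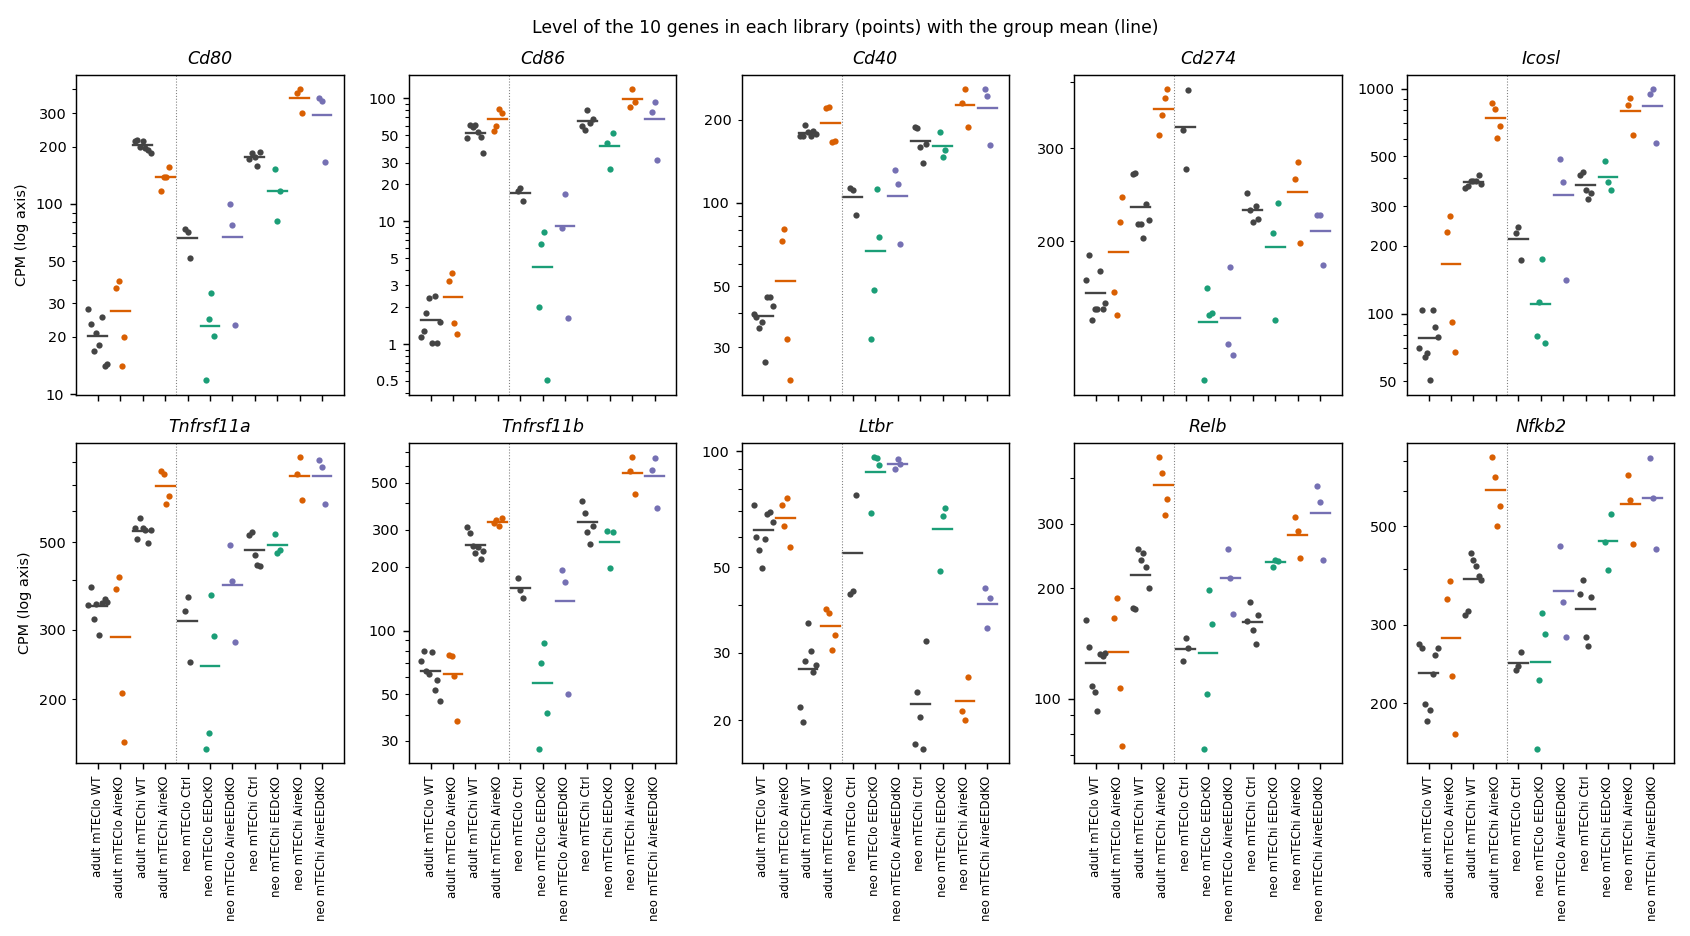
CPM (log axis) of each of the 10 genes in every library, with adult groups left and neonatal groups right of the dotted line and group means as lines, colored by genotype (grey, WT or Ctrl; orange, AireKO; green, EEDcKO; purple, AireEEDdKO). Cd80 is lower in adult mTEChi AireKO (117 to 156 CPM) than in WT (185 to 217 CPM), and higher in neonatal mTEChi AireKO (299 to 401 CPM) than in Ctrl (159 to 187 CPM).

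The neonatal fractions differed less. In Ctrl, 7 of 10 members were called, 5 higher and 2 lower in mTEChi, against 37.4% of all genes, 19.3% higher and 18.0% lower. Cd86 had 14.6, 17.6 and 18.6 CPM in mTEClo Ctrl and 55.4, 59.1, 63.1, 68.1 and 81.1 CPM in mTEChi Ctrl, a log2 difference of 1.94 ± 0.47 (edgeR adjusted p = 0.0031). The neonatal mTEClo Ctrl values lay above all adult mTEClo WT values of this gene, on tables that were scaled separately. Cd80 was 1.40 ± 0.34, Tnfrsf11b 1.04 ± 0.34, Icosl 0.79 ± 0.30 and Tnfrsf11a 0.60 ± 0.22 higher in mTEChi, and Ltbr was lower with a log2 difference of -1.26 ± 0.21. With age in days as a term in the edgeR fit, Icosl (0.62, adjusted p = 0.084) and Tnfrsf11a (0.43, adjusted p = 0.079) were no longer called. The mTEChi Ctrl libraries came from mice of 1 to 6 days and the mTEClo Ctrl libraries from mice of 1 to 3 days. Leaving out mTEClo Ctrl replicate 1 or replicate 3 moved the count of members by more than 1.5-fold, to as few as 3.

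Cd274 ran the other way in neonates. It had 325, 274 and 387 CPM in neonatal mTEClo Ctrl, above each of the 5 mTEChi Ctrl libraries at 217 to 247 CPM with a log2 difference of -0.52 ± 0.16 for mTEChi over mTEClo (edgeR adjusted p = 0.016). Without mTEClo Ctrl replicate 3 it was -0.33 (edgeR adjusted p = 0.20). The same 3 mTEClo libraries held the most RNA of cortical epithelium, with 1357 to 2163 CPM summed over 5 cTEC markers against 222 to 614 CPM in mTEChi Ctrl and 142 to 187 CPM in adult mTEClo WT, although the sort was for Ly51- cells. Whether this has a part in the Cd274 level was not tested.

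Within neonatal mutants, mTEChi exceeded mTEClo for most members. In EEDcKO, 9 of 10 were called, all higher in mTEChi, against 38.0% of all genes, 19.4% higher and 18.5% lower. Ltbr was the exception at -0.48 ± 0.20 (edgeR adjusted p = 0.066). In AireEEDdKO, 9 of 10 were called, 8 higher and Ltbr lower, against 39.2% of all genes, 18.9% higher and 20.2% lower. Relb missed the threshold there with 0.59 ± 0.24 (edgeR adjusted p = 0.051). With 1 library left out, the count was 8 to 9 in EEDcKO and 6 to 10 in AireEEDdKO. Cd274 lost its call in 5 of 7 such fits in EEDcKO, and with the replicate block (edgeR adjusted p = 0.067). In AireEEDdKO, Cd274 lost it in 4 of 6 such fits and Nfkb2 in 3 of 6.

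**Figure D3:**
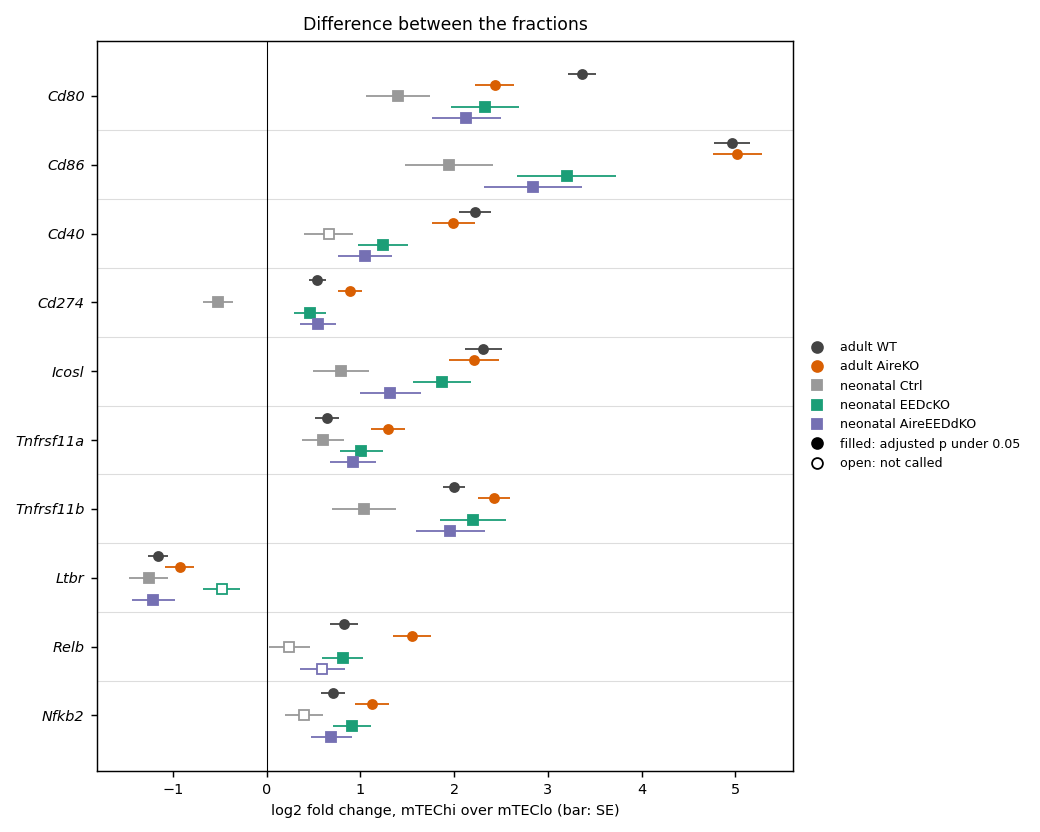
Log2 fold change of mTEChi over mTEClo (x axis, bars are SE) for each gene in 5 genotype and age groups. Ltbr lies left of 0 in each of the 5, Cd274 does so in neonatal Ctrl alone (-0.52), and the adult values of Cd80, Cd86, Cd40 and Icosl exceed those of neonatal Ctrl.

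Whether the gap between the fractions changed with age was tested as an interaction over adult WT and neonatal Ctrl libraries of both tables. The interaction called 7 of 10 members, where 35.2% of all genes were called in either direction. For 6 of them mTEChi exceeded mTEClo by less in neonates, and for Cd274 the difference changed its direction, from 0.54 in adult WT to -0.52 in neonatal Ctrl. The differences of log2 fold changes, neonatal minus adult, were -2.94 ± 0.29 for Cd86, -1.89 ± 0.18 for Cd80, -1.48 ± 0.16 for Cd40, -1.44 ± 0.19 for Icosl, -0.98 ± 0.14 for Cd274, -0.89 ± 0.19 for Tnfrsf11b and -0.50 ± 0.18 for Relb. All 7 were called by edgeR, with adjusted p from 1.8e-10 for Cd80 to 0.025 for Relb. Tnfrsf11a with 0.03 ± 0.13, Ltbr with 0.00 ± 0.29 and Nfkb2 with -0.23 ± 0.17 were not called. Relb was not called without neonatal mTEClo Ctrl replicate 2 (-0.44, edgeR adjusted p = 0.090) or with the replicate block (-0.47, edgeR adjusted p = 0.091). Age and table cannot be told apart here, and the cTEC marker sums above differ between the mTEClo groups compared.

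What loss of Aire does to the members was asked first in adult mTEChi. Of the 10 members, 9 were called, 8 higher and 1, Cd80, lower in AireKO, where 55.3% of all genes were called, 26.6% higher and 28.8% lower. The median log2 fold change of the members was 0.39, against -0.01 over all genes tested. The count was 5 with RLE size factors, with library size alone, with DESeq2, and 5 without WT replicate 6 or replicate 7, since Cd86 (0.39 ± 0.15), Tnfrsf11a (0.38 ± 0.15), Tnfrsf11b (0.36 ± 0.14) and Ltbr (0.34 ± 0.14) had adjusted p from 0.027 to 0.042 in edgeR and lost the call under each of these. With library size alone, the log2 fold changes of all genes had a median shift of -0.16. None of the 10 moved by 2-fold.

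Cd80 fell. It had 117, 139, 139 and 156 CPM in mTEChi AireKO against a lowest, median and highest value of 185, 200 and 217 CPM in WT, so that each mutant library lay below each WT library. On the log2 scale the difference was -0.56 ± 0.16 (edgeR adjusted p = 0.0038), and it was -0.38 with an adjusted p of 0.073 when age in weeks was a term. AireKO mice were 5 to 6 and WT mice 4 to 5 weeks old.

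Icosl rose the most among the members. It had 866, 815, 602 and 682 CPM in mTEChi AireKO and 362, 388 and 411 CPM as lowest, median and highest in WT with a log2 difference of 0.95 ± 0.22 (edgeR adjusted p = 6.6e-04). The groups did not overlap. Relb, with 455, 411, 316 and 350 CPM against 176, 228 and 255 CPM, rose by 0.81 ± 0.17 on the log2 scale (edgeR adjusted p = 2.0e-04), and its precursor partner Nfkb2, with 714, 646, 500 and 556 CPM against 316, 386 and 435 CPM, by 0.66 ± 0.15 (edgeR adjusted p = 5.4e-04). Cd274, the PD-1 ligand, had 317, 347, 373 and 388 CPM against 203, 219 and 269 CPM and rose by 0.62 ± 0.11 on the log2 scale (edgeR adjusted p = 2.9e-05). None of the libraries of these 3 genes overlapped between the genotypes either, as was so for 38.0% of all genes, 18.2% with AireKO higher and 19.8% lower. Cd40 had 166, 167, 220 and 223 CPM against 175 to 192 CPM in WT and was not called (0.11 ± 0.18).

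In adult mTEClo, 1 of 10 members was called in AireKO, against 24.9% of all genes, 13.6% higher and 11.3% lower. This was Icosl, with 231, 271, 91.7 and 67.3 CPM in AireKO and 50.4, 74.5 and 104 CPM as lowest, median and highest in WT with a log2 difference of 1.05 ± 0.23 (edgeR adjusted p = 0.0015). Replicates 1 and 2 were high and replicates 3 and 4 lay within the WT range. The same split ran through other members. Cd40 had 73.1 and 80.2 CPM in replicates 1 and 2 and 32.2 and 22.8 CPM in replicates 3 and 4, and Cd80 had 36.3 and 39.4 against 14.0 and 19.9 CPM. Replicates 1 and 2 came from mice of 5 weeks, held mitochondrial counts and had 1883769 and 1639231 counts in total. Replicates 3 and 4 came from mice of 6 weeks, held no mitochondrial counts and had 3272356 and 3938588 counts in total. Age, depth and this kind of library thus cannot be told apart in mTEClo AireKO. All 5 cTEC markers were called higher in mTEClo AireKO, with sums of 226 to 349 CPM against 142 to 187 CPM in WT. The dendritic and myeloid sums were 150 to 182 CPM against 91.0 to 129 CPM, where of 8 markers tested Lyz2 was called higher and Itgam lower. The part of such cells in the member levels was not tested.

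Restricted to libraries with mitochondrial counts, 5 of 10 members were called in mTEClo AireKO, all higher, against 20.9% of all genes in the same fit, 11.2% higher and 9.73% lower: Icosl by 1.71 on the log2 scale, Cd40 by 1.00, Cd80 by 0.96, Nfkb2 by 0.64 and Relb by 0.53, with edgeR adjusted p from 2.9e-08 to 0.019. The AireKO side of this fit was replicates 1 and 2 alone, the shallower libraries of their group. By age label, 8 of the 10 members were lower in both libraries of 6 weeks than in both of 5 weeks in mTEClo AireKO, as were 27.6% of all genes. In mTEChi AireKO, where no library held mitochondrial counts, this was so for 6 members, namely Cd40, Icosl, Tnfrsf11a, Ltbr, Relb and Nfkb2, and for 29.0% of all genes. Cd274 was higher in both libraries of 6 weeks in both fractions. With 2 libraries a side, these orders are descriptions without a test. Without mTEClo AireKO replicate 1 or 2, the fit over all libraries called Cd274 higher and Tnfrsf11a lower (-0.45 and -0.49) beside Icosl, without replicate 3 it called Cd80 higher (0.62), without replicate 4 Cd40 and Nfkb2 (0.61 and 0.43), and without WT replicate 2 Cd274 (0.31).

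Whether loss of Aire acted differently in the adult fractions was tested as an interaction, which called 3 of 10 members against 25.3% of all genes. The mTEChi minus the mTEClo log2 difference was -0.93 ± 0.26 for Cd80 (edgeR adjusted p = 0.0080), with -0.56 in mTEChi and 0.37 in mTEClo. It was 0.73 ± 0.25 for Relb (edgeR adjusted p = 0.029), with 0.81 and 0.07, and 0.65 ± 0.21 for Tnfrsf11a (edgeR adjusted p = 0.026), with 0.38 and -0.27. In male libraries alone none of the 3 was called by edgeR, with adjusted p of 0.063 for Cd80, 0.12 for Relb and 0.13 for Tnfrsf11a. With library size alone, or without mTEChi AireKO replicate 1 or 2 or mTEClo AireKO replicate 3 or 4, Cd80 held and Relb and Tnfrsf11a did not. The kind of library was unequal here, since every mTEChi AireKO library but only replicates 3 and 4 of mTEClo AireKO lacked mitochondrial counts. In libraries with such counts, the mTEClo difference was 0.96 for Cd80, 0.53 for Relb and 0.21 for Tnfrsf11a.

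In neonatal mTEChi, 5 of 10 members were higher in AireKO than in Ctrl and none was lower, against 28.8% of all genes called, 13.3% higher and 15.5% lower. Cd80 had 383, 401 and 299 CPM in AireKO and 172, 184, 176, 159 and 187 CPM in Ctrl. Each AireKO library exceeded each Ctrl library, and the difference on the log2 scale was 1.04 ± 0.31 (edgeR adjusted p = 0.014). Icosl had 846, 906 and 625 CPM against 414, 425, 353, 322 and 344 CPM and rose by 1.09 ± 0.28 on the log2 scale (edgeR adjusted p = 0.0059). These groups did not overlap either.

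The RANK receptor and both NF-kB subunits rose as well. Tnfrsf11a had 746, 821 and 640 CPM in neonatal mTEChi AireKO and 435 to 531 CPM in Ctrl with a log2 difference of 0.62 ± 0.22 (edgeR adjusted p = 0.033, 0.17 with library size alone, and 0.066 to 0.20 without AireKO replicate 1 or 2 or Ctrl replicate 3, 4 or 5). Relb had 312, 286 and 242 CPM against 141 to 183 CPM (0.79 ± 0.21, edgeR adjusted p = 0.0075), and Nfkb2 had 651, 573 and 455 CPM against 268 to 378 CPM (0.78 ± 0.19, edgeR adjusted p = 0.0042). Tnfrsf11b with 0.77 ± 0.31, Cd86 with 0.59 ± 0.40 and Cd40 with 0.43 ± 0.25 were not called in the fit over all neonatal groups, although their libraries did not overlap between the genotypes, as held for 34.2% of all genes. All 3 were called in a fit of both groups alone (8 members in all, against 34.8% of all genes). Without AireKO replicate 2, the only one of 6 days, 1 member, Nfkb2, was still called, and the log2 fold change of Cd80 was 0.91 (edgeR adjusted p = 0.084). With age in days as a term all 5 calls held. AireKO mice were 4 to 6 and Ctrl mice 1 to 6 days old. Within Ctrl, Icosl, Tnfrsf11a, Nfkb2, Tnfrsf11b and Cd40 were higher in both libraries of 6 days than in the 3 younger ones. Cd86 was lower there, and 4 members overlapped. This order carries no test and was not counted over all genes. The Ctrl libraries of 6 days were also the shallower ones, with 1726637 and 1676830 counts against 3418616 to 4025158, so age and depth cannot be told apart there. AireKO replicate 3, the deepest of its group (3695066 counts), was lowest of its group for all 5 called members. The part of depth was not tested.

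**Figure D4:**
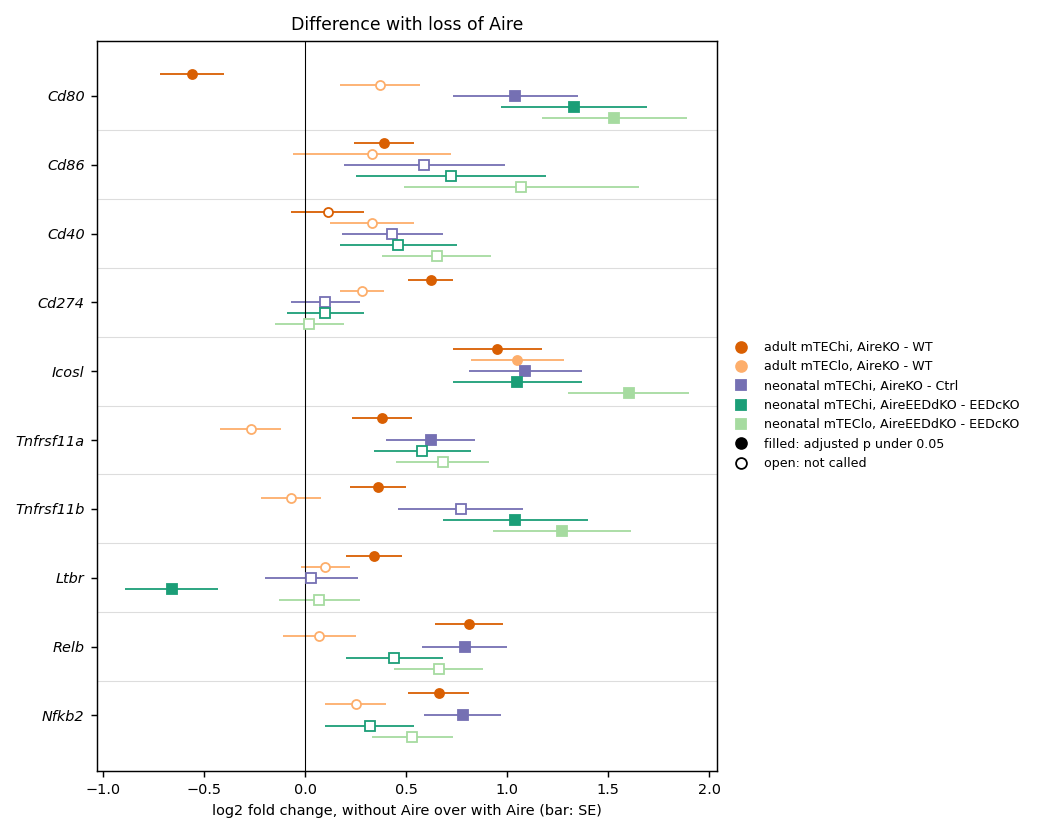
Log2 fold change with loss of Aire (x axis, bars are SE, filled symbols called) in 2 adult and 3 neonatal comparisons. Icosl lies right of 0 and is called in all 5, while Cd80 is below 0 in adult mTEChi (-0.56) and above 0 in neonatal mTEChi (1.04).

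The difference in Aire effect between the ages was tested as an interaction in mTEChi and called 2 of 10 members, against 17.8% of all genes. For Cd80, the neonatal minus the adult log2 fold change was 1.57 ± 0.17 (edgeR adjusted p = 2.9e-08), and leaving out any 1 of the libraries kept it between 1.50 and 1.65 and called. For Cd274 it was -0.54 ± 0.15 (edgeR adjusted p = 0.013, 0.053 without neonatal AireKO replicate 3 and 0.059 with the replicate block), since Cd274 rose in the adult and had a log2 fold change of 0.10 ± 0.17 in the neonate. Icosl (0.12 ± 0.20), Relb (-0.04 ± 0.18) and Nfkb2 (0.10 ± 0.18) were not called, so a difference between the ages was not detected for them. Table, age and the kind of library without mitochondrial counts cannot be told apart in this interaction, and residual Aire was higher in the neonatal than in the adult AireKO libraries.

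Because Icosl lies beside the mutated gene, the other genes within 100 kb of Aire were read after these values were seen. Of 6 genes there, Icosl included, 5 were called higher and none lower in adult mTEChi AireKO, 4 and none in adult mTEClo AireKO, and 3 and none in neonatal mTEChi AireKO. Of all genes, 26.6%, 13.6% and 13.3% were called higher in these comparisons. Dnmt3l, a cofactor of DNA methyltransferases whose exons overlap those of Aire, rose by 1.05 ± 0.22 on the log2 scale in adult mTEChi and by 2.06 ± 0.44 in adult mTEClo, and its value was 0.59 ± 0.51 in neonatal mTEChi (edgeR adjusted p = 0.42). Gm47922, a noncoding RNA gene on the far side of Icosl, rose by 0.99 ± 0.14, 2.09 ± 0.26 and 1.29 ± 0.41 in the same comparisons. Pfkl, a phosphofructokinase gene on the other side of Aire, rose by 0.50 ± 0.16, 0.49 ± 0.16 and 0.70 ± 0.18. Trpm2 was called in none of these 3 edgeR comparisons, with adjusted p from 0.16 to 0.85. Neighbours of Aire on both sides were therefore higher beside Icosl, and loss of Aire and the altered locus cannot be told apart for this member.

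On the EED-deficient background, loss of Aire was read by comparing AireEEDdKO with EEDcKO. In mTEChi, 4 of 10 members were called, 3 higher and 1 lower, against 22.5% of all genes, 10.6% higher and 11.9% lower. Cd80 had 362, 349 and 166 CPM in AireEEDdKO and 153, 81.1 and 117 CPM in EEDcKO with a log2 difference of 1.33 ± 0.36 (edgeR adjusted p = 0.011). Icosl had 945, 995 and 575 CPM against 475, 383 and 354 CPM (1.05 ± 0.32, edgeR adjusted p = 0.022). In both genes AireEEDdKO replicate 3 was the lowest of its group and still above all EEDcKO libraries. Tnfrsf11b was 1.04 ± 0.36 higher (edgeR adjusted p = 0.041) and Ltbr lower with a log2 difference of -0.66 ± 0.23 (edgeR adjusted p = 0.042), and neither was called with age in days as a term. Leaving out EEDcKO replicate 2 or replicate 3, or AireEEDdKO replicate 1 or replicate 2, moved the count by more than 1.5-fold, down to 0.

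In mTEClo, the same comparison called 3 of 10 members, all higher, against 8.02% of all genes, 4.96% higher and 3.06% lower. Icosl had 484, 385 and 141 CPM in AireEEDdKO and 79.1, 112, 175 and 73.9 CPM in EEDcKO with a log2 difference of 1.60 ± 0.30 (edgeR adjusted p = 0.0022). Cd80 had 99.7, 77.8 and 23.2 CPM against 11.8, 24.8, 33.9 and 20.2 CPM (1.53 ± 0.36, edgeR adjusted p = 0.010), and Tnfrsf11b was 1.27 ± 0.34 higher (edgeR adjusted p = 0.024). AireEEDdKO replicate 3 lay within the EEDcKO range for Icosl and Cd80, so that the groups overlapped. Among the 6 genes within 100 kb of Aire, 3 were called higher and none lower here, namely Icosl, Dnmt3l (2.69 ± 0.64) and Gm47922 (2.58 ± 0.56), and in mTEChi 2 were, Icosl and Gm47922 (2.69 ± 0.53). Of all genes, 4.96% in mTEClo and 10.6% in mTEChi were called higher. In a fit of these 2 groups alone edgeR called no member and 0.255% of all genes (adjusted p = 0.13 for Icosl and 0.17 for Cd80), and without AireEEDdKO replicate 1 the edgeR adjusted p of Cd80 was 0.12. Counts of members ran from 1 to 8 when 1 library was left out, and moved by more than 1.5-fold without AireEEDdKO replicate 1, 2 or 3 or without EEDcKO replicate 3.

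What loss of EED does to the members was asked in both neonatal fractions, with n = 3 in mTEChi EEDcKO and n = 4 in mTEClo EEDcKO. In mTEChi, 2 of 10 were called, both higher, against 32.6% of all genes, 19.1% higher and 13.6% lower. Ltbr had 48.9, 68.0 and 71.4 CPM in EEDcKO and 17.4, 23.7, 20.4, 16.9 and 32.1 CPM in Ctrl. The groups were well apart, and the difference on the log2 scale was 1.50 ± 0.20 (edgeR adjusted p = 1.2e-05), from 1.41 to 1.70 when 1 library was left out. Ltbr is a gene of higher level in mTEClo than in mTEChi, and 3 of 4 mTEClo markers, Ccl21a, Krt5 and Krt14, were also called higher in mTEChi EEDcKO, with sums of 1051 to 1526 CPM against 899 to 1047 CPM in Ctrl. The 6 mesenchyme and endothelium markers summed to 355 to 624 CPM against 244 to 303 CPM, with 2 called higher and 1 lower. Of 8 dendritic and myeloid markers tested, 4 were called lower and none higher, with sums of 284 to 424 CPM against 378 to 415 CPM. The part of such cells in the Ltbr level was not tested. Nfkb2 had 461, 398 and 532 CPM against 268 to 378 CPM (0.51 ± 0.19, edgeR adjusted p = 0.044), which did not hold with RLE size factors, with DESeq2, with the replicate block (adjusted p = 0.067, 0.067 and 0.075) or without any 1 of 7 of the 8 libraries. In a fit of both groups alone, edgeR also called Relb higher and Cd80 and Cd86 lower (5 members in all, against 33.1% of all genes). Relb with 229, 239 and 237 CPM lay above all 5 Ctrl libraries at 141 to 183 CPM, with 0.54 ± 0.21 (edgeR adjusted p = 0.051). Of all genes, 16.8% likewise had every EEDcKO library above every Ctrl library, and 14.4% had every one below. Cd80 (-0.60 ± 0.33) and Cd86 (-0.70 ± 0.42) had lower values and were not called.

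In mTEClo, 6 of 10 members were called in EEDcKO, 5 lower and Ltbr higher, against 30.7% of all genes, 16.8% higher and 13.9% lower. The median log2 fold change of the members was -0.79, against -0.01 over all genes. Cd86 had 2.02, 6.47, 8.10 and 0.505 CPM in EEDcKO and 17.6, 18.6 and 14.6 CPM in Ctrl (-1.96 ± 0.57, edgeR adjusted p = 0.012). Cd80 had 11.8, 24.8, 33.9 and 20.2 CPM against 74.0, 71.5 and 51.8 CPM (-1.52 ± 0.37, edgeR adjusted p = 0.0030). Both CD28 ligands were below Ctrl in each mutant library, as held for 17.8% of all genes.

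Tnfrsf11b had 27.6, 70.1, 87.6 and 40.6 CPM in mTEClo EEDcKO against 177, 156 and 143 CPM in Ctrl with a log2 difference of -1.48 ± 0.35 (edgeR adjusted p = 0.0025). Cd274 had 109, 163, 145 and 146 CPM against 325, 274 and 387 CPM (-1.22 ± 0.17, edgeR adjusted p = 1.8e-05). Icosl fell, at -0.96 ± 0.31 (edgeR adjusted p = 0.020, 0.058 with the replicate block, and 0.055 to 0.067 without Ctrl replicate 1 or 2 or EEDcKO replicate 1 or 4). Ltbr had 69.0, 96.6, 96.2 and 92.1 CPM against 42.6, 43.5 and 77.1 CPM (0.72 ± 0.21, edgeR adjusted p = 0.011), and edgeR did not call it without Ctrl replicate 1 or replicate 2 (adjusted p = 0.12 and 0.11). The summed cTEC markers were 202 to 711 CPM in mTEClo EEDcKO and 1357 to 2163 CPM in Ctrl, and 6 mesenchyme and endothelium markers summed to 319 to 506 CPM against 124 to 134 CPM. The part of these cells in the differences was not tested. Ages were 1 to 6 days in EEDcKO and 1 to 3 days in Ctrl, and EEDcKO replicate 3, of 6 days, had the highest Cd80, Cd86, Tnfrsf11b, Cd40, Icosl, Tnfrsf11a, Relb and Nfkb2 of its group.

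**Figure D5:**
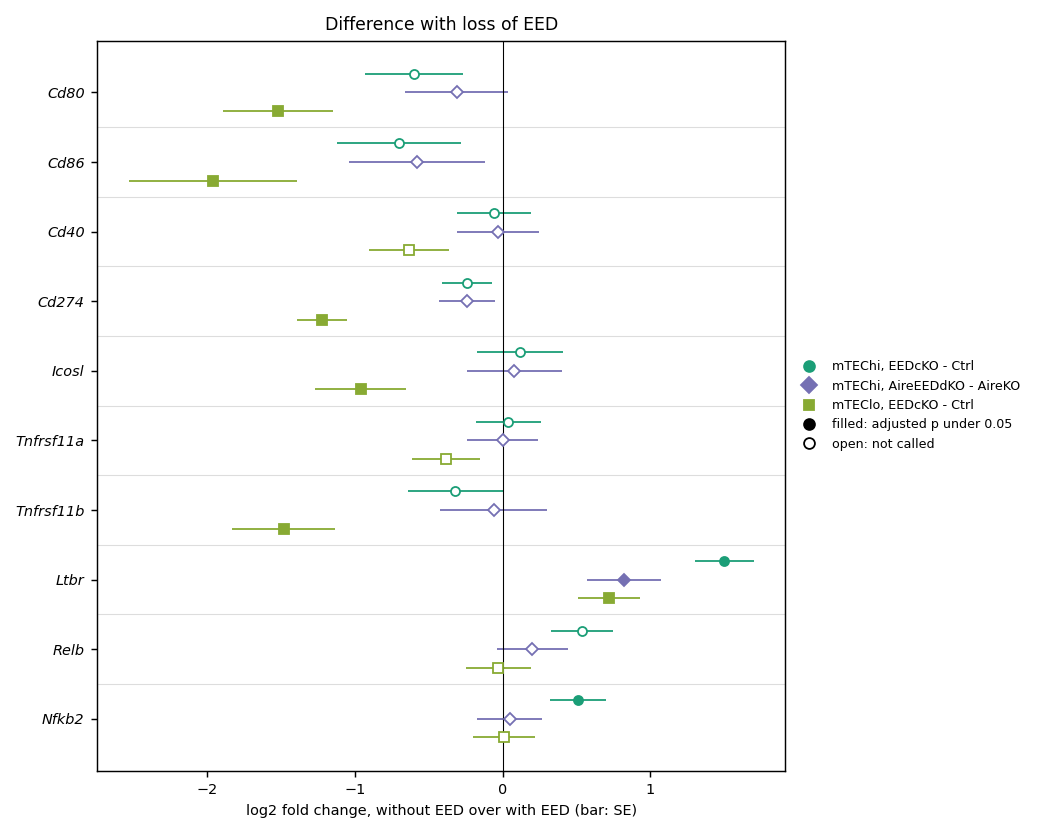
Log2 fold change with loss of EED (x axis, bars are SE, filled symbols called) in neonatal mTEChi of Aire-sufficient mice, in mTEChi of AireKO mice and in mTEClo. Ltbr is called higher in all 3, at 1.50, 0.82 and 0.72, and Cd80, Cd86, Cd274, Icosl and Tnfrsf11b are called lower in mTEClo.

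Between mTEChi AireEEDdKO and AireKO, 1 of 10 members was called, against 16.8% of all genes, 9.80% higher and 7.03% lower. It was Ltbr, with 44.2, 34.7 and 41.7 CPM in AireEEDdKO and 21.2, 20.0 and 26.0 CPM in AireKO (0.82 ± 0.25, edgeR adjusted p = 0.027). Without AireKO replicate 1 or 2 or AireEEDdKO replicate 1 or 3 it was not called, with edgeR adjusted p up to 0.10. Ltbr was thus called higher in all 3 comparisons that vary EED, which share no library. The Aire by EED interaction in mTEChi called 0 of 10 members with edgeR and 0 with DESeq2, against 1.57% of all genes, and 1 member, Ltbr at -0.69 ± 0.33, had an unadjusted p under 0.05 (0.046). The difference in EED effect between mTEChi and mTEClo called 1 of 10 members, against 1.98% of all genes. It was Cd274, with 0.98 ± 0.24 (edgeR adjusted p = 0.030, 0.097 with the replicate block, and up to 0.11 without any 1 of 6 libraries, mTEClo Ctrl replicate 1 or 3, mTEClo EEDcKO replicate 1, mTEChi Ctrl replicate 5 or mTEChi EEDcKO replicate 1 or 3), with -0.24 in mTEChi and -1.22 in mTEClo.

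Other genes of these pathways were read from lists, of which up to 3 called genes with the smallest p in each direction are named for the main comparisons. Of 19 further NF-kB signalling components, 17 differed between the fractions in adult WT, 13 higher and 4 lower in mTEChi. Of all genes, 70.5% were called there, 36.8% higher and 33.7% lower. The median of the components was 0.38 on the log2 scale against 0.00 over all genes. The adaptors Traf6 (1.22 ± 0.06) and Traf1 (1.46 ± 0.09) and the NF-kB subunit Rel (1.80 ± 0.10) were higher in mTEChi, and Tnfaip3 (-1.07 ± 0.06), which encodes the NF-kB inhibitor A20, Traf5 (-1.35 ± 0.12) and Bcl3 (-0.51 ± 0.11) were lower. In neonatal Ctrl 9 of the 19 differed, 6 higher and 3 lower, with a median of 0.25 against -0.01. Of all genes, 37.4% were called there, 19.3% higher and 18.0% lower. Rel (0.87 ± 0.14), Traf6 (0.65 ± 0.15) and Traf1 (1.13 ± 0.27) again led those higher in mTEChi.

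In adult mTEChi AireKO, 13 of the 19 components were called, 11 higher and 2 lower, with a median of 0.40 against -0.01 over all genes. Of all genes, 55.3% were called, 26.6% higher and 28.8% lower. Map3k14, the kinase of the noncanonical arm, had 268 to 346 CPM in AireKO against 117 to 172 CPM in WT, which did not overlap, and rose by 1.05 ± 0.10 on the log2 scale (edgeR adjusted p = 3.4e-09). Traf1 (1.16 ± 0.10) and the canonical subunit Rela (0.92 ± 0.11) rose too, and Traf5 (-1.80 ± 0.20) and Tnfaip3 (-0.73 ± 0.08) fell. In neonatal mTEChi AireKO, 10 of the 19 were called, 9 higher and 1 lower, with a median of 0.43 against 0.03. Of all genes, 28.8% were called, 13.3% higher and 15.5% lower. Traf6 (0.82 ± 0.14), Birc2 (0.66 ± 0.15) and the inhibitor gene Nfkbia (0.81 ± 0.20) had the smallest p among those that rose, and Traf5 (-1.56 ± 0.31) was the one that fell. Map3k14 had a value of 0.52 ± 0.20 there and was not called (edgeR adjusted p = 0.055).

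In EEDcKO, 9 of the 19 components were called in each fraction, 5 higher and 4 lower in mTEChi and 3 higher and 6 lower in mTEClo, against 32.6% and 30.7% of all genes. The medians of the components were -0.03 and -0.13 on the log2 scale, against 0.00 and -0.01 over all genes. Rela rose by 0.97 ± 0.15 in mTEChi and 0.51 ± 0.16 in mTEClo, Bcl3 by 1.24 ± 0.25 and 0.74 ± 0.27, and Birc2 fell in both, at -0.70 ± 0.15 and -0.80 ± 0.16. Nfkbib rose in mTEChi (1.16 ± 0.24), where Chuk (-0.68 ± 0.12) and Rel (-0.67 ± 0.14) fell. In mTEClo, Nfkbie rose (0.68 ± 0.26) and Nfkb1 (-0.49 ± 0.10) and Traf6 (-0.74 ± 0.15) fell.

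Among 10 further costimulatory and coinhibitory ligands, 9 passed the filter in the adult table. In adult mTEChi AireKO all 9 were called, 7 higher and 2 lower, where 55.3% of all genes were called, 26.6% higher and 28.8% lower. Their median was 0.76 against -0.01 over all genes. Tnfsf9, the ligand of 4-1BB, rose by 1.60 ± 0.12, Cd276 by 1.17 ± 0.15 and Tnfrsf14 by 0.97 ± 0.13 on the log2 scale, and Tnfsf18 fell (-1.68 ± 0.44). Tnfsf4, the OX40 ligand, had at least 6.30 CPM in every adult mTEChi WT library and at most 1.71 CPM in AireKO (-3.00 ± 0.40). In neonatal mTEChi AireKO, 5 of 10 were called, 2 higher and 3 lower, with a median of 0.21 against 0.03. Of all genes, 28.8% were called, 13.3% higher and 15.5% lower. Cd70, the ligand of CD27, rose by 1.53 ± 0.37 and Icam1 by 0.49 ± 0.17, and Tnfsf4 (-3.70 ± 0.78), Lgals9 (-1.04 ± 0.25) and Vtcn1 (-3.71 ± 0.92) fell.

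In neonatal mTEChi EEDcKO, 3 of these 10 ligands were called, 2 higher and 1 lower, and in mTEClo 4 were, 2 higher and 2 lower, where 32.6% and 30.7% of all genes were called. Cd276 rose in both, by 1.58 ± 0.19 and 1.25 ± 0.21. In mTEChi, Cd70 rose by 1.49 ± 0.36 and Tnfsf4 fell (-3.35 ± 0.68). In mTEClo, Vtcn1 rose by 1.53 ± 0.50, and Pdcd1lg2, the gene of the other PD-1 ligand, and Lgals9 fell (-1.25 ± 0.28 and -0.81 ± 0.22). In adult WT, 6 of the 9 were higher in mTEChi, with Tnfsf9 (3.53 ± 0.16), Pdcd1lg2 (1.14 ± 0.10) and Tnfsf4 (2.67 ± 0.29) of smallest p, and Lgals9 (-1.57 ± 0.08) and Cd276 (-0.41 ± 0.13) were lower. Of all genes, 36.8% were called higher and 33.7% lower there.

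Of 5 TNF family ligands, 2 passed the adult filter and 3 the neonatal one. Lta and Ltb, which together make the ligand of the lymphotoxin beta receptor, were 5.89 ± 0.33 and 1.41 ± 0.18 higher in adult mTEChi than in mTEClo, and 2.22 ± 0.60 and 1.19 ± 0.41 higher in neonatal mTEChi, against the lower Ltbr there. Lta fell in neonatal mTEChi AireKO (-1.68 ± 0.58). The RANK ligand gene Tnfsf11 had 1.06 to 3.38 CPM in neonatal mTEChi Ctrl and 3.72 to 12.3 CPM in EEDcKO, and rose there by 1.77 ± 0.46, as Ltb did by 1.10 ± 0.34. In mTEClo, Tnfsf11 was read at 0 to 1 count per library in Ctrl and at 1.80 to 8.10 CPM in EEDcKO, and was called higher (edgeR adjusted p = 5.0e-04).

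The members varied together to different degrees. On log2 CPM, Relb and Nfkb2 had the highest correlation of all member pairs by the lower of both tables, with r = 0.99 over 23 adult and 0.96 over 24 neonatal libraries. Cd80 and Tnfrsf11b followed each other closely in neonates (r = 0.99; 0.95 in adults), Ltbr ran against Cd80 (r = -0.91 and -0.75), and Cd274 was loosely tied to Icosl (r = 0.77 and 0.39). These values describe libraries that share fraction, genotype and depth and carry no test.

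Over 11784 genes, the 2 most alike each member were searched by the lower of its correlations in both tables. For the ligands these were Atp8b4 and Dennd4a (0.98 each) for Cd80, Bmp3 (0.98) and Atp8b4 (0.97) for Cd86, Snx8 and Grin2c (0.98 each) for Icosl, and Cstb (0.85) and Oma1 (0.84) for Cd274, the member with the least close matches. For the receptors they were Tnip1 and Lpo (0.97 each) for Cd40, Rhbdl2 (0.95) and Adam8 (0.94) for Tnfrsf11a, Dennd4a and Adam23 (0.97 each) for Tnfrsf11b, and Cep170b and Arhgef17 (0.98 each) for Ltbr. For the NF-kB subunits they were Psd (0.97) and Sspo (0.96) for Relb, and Syngr2 (0.97) and Sspo (0.96) for Nfkb2. Psd lies against Nfkb2 on the opposite strand, and reads of both cannot be told apart where they overlap.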

How the data were processed

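RNA of 47 libraries of sorted mouse mTECs was measured by RamDA-seq, a full-length method that primes cDNA with oligo(dT) and not-so-random primers together. According to the methods and the submitters' processing notes, the authors trimmed reads with fastp 0.20.0, aligned them to mm10 with STAR 2.7.3a, removed alignments of mapping quality under 5 with SAMtools 1.9 and duplicates with Picard 2.21.1, and counted reads per Ensembl gene with HTSeq 0.11.2 regardless of strand. The deposited values used here are these raw counts, 1 table for adult and 1 for neonatal libraries. Their normalized tables were not used. Removal of duplicates can lower the counts of highly expressed genes.

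Genes were named from a GRCm38 annotation, which gave a symbol to 99.8% of adult and 99.4% of neonatal identifiers. With edgeR 4.0.16 in R 4.3.3, each table was filtered (filterByExpr), scaled (TMM) and fitted as a whole, with 1 coefficient per group and a quasi-likelihood test. A fit over both tables (30 WT or Ctrl libraries of both fractions and AireKO libraries of mTEChi) gave the 2 interactions with age. Fold changes used a prior count of 0.125, CPM were TMM-scaled, and p-values were adjusted over all 19310, 20196 or 20316 genes tested. Common biological variation was 14.5% for adult and 19.8% for neonatal libraries. Across 92 replicate pairs the counts differed by more than sampling noise (chi-square per degree of freedom of at least 1.23), and each library was taken as 1 replicate. Some pairs of the same age and sex were closer than others. In adult mTEChi AireKO the value was 1.34 for replicates 1 and 2 and 1.28 for replicates 3 and 4. Across these pairs it was 4.01 to 6.42. Whether such close libraries are independent was not tested. Nothing in the labels says that replicates came from separate animals, so p-values measure only the spread between these samples.

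The members and all gene lists were chosen with earlier results of these data known. All 10 members were named in each comparison, and of the other lists up to 3 called genes with the smallest p in each direction. Genes of like pattern had a mean of at least 10 CPM in each table and were ranked on log2(CPM + 1). Other settings tried were no filter, a replicate block, scaling by RLE or by library size alone, DESeq2 1.42.0, a fold of at least 2, leaving out each library, only the groups compared, male libraries, an age term and a restriction by mitochondrial counts. Genes within 100 kb of Aire were added after seeing the data. Samples of the same number were taken as paired where the correlation of deviations exceeded 0.1 in every pair, which held for adult AireKO mTEChi and mTEClo (4 pairs, 0.13 to 0.19) and neonatal AireEEDdKO (3 pairs, 0.26 to 0.39). The edgeR step was tested on simulated data with known changes. The kB consensus was searched in RefSeq start windows. Figures were drawn with matplotlib 3.10.9.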

Additional observations from a re-analysis of the deposited data

Results flagged for a closer look

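Among 60 sets of 4 to 10 libraries of 1 group and gene, 2 held a library far from the rest, where chance gives about 5% of sets. Cd40 in adult mTEChi WT replicate 3 was at 192 CPM against 175 to 182 CPM in the other 6 libraries. Ltbr in neonatal mTEClo EEDcKO replicate 1 was at 69.0 CPM against 92.1 to 96.6 CPM.

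Effects that differed between groups by the test of an interaction were of 4 kinds. The effect of Aire loss differed between the adult fractions for Cd80 (-0.93 on the log2 scale, mTEChi minus mTEClo), Tnfrsf11a (0.65) and Relb (0.73). The effect of EED loss differed between the neonatal fractions for Cd274 (0.98). The effect of Aire loss in mTEChi differed between the ages for Cd80 (1.57, neonatal minus adult) and Cd274 (-0.54). The difference of mTEChi over mTEClo was smaller in neonates than in adults for Cd80 (-1.89), Cd86 (-2.94), Cd40 (-1.48), Icosl (-1.44), Tnfrsf11b (-0.89) and Relb (-0.50), and changed its direction for Cd274 (-0.98). Of these, the difference of Cd80 between the ages in its response to Aire loss was called in every other fit that was run. The same held for the fraction gap by age of Cd80, Cd86, Cd40 and Icosl. For Cd274 and Tnfrsf11b that gap lost its call under the 2-fold rule alone.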

How the results depend on the processing

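Over 180 pairs of member and comparison, 89 were called and 55 were called in every other fit except the stricter 2-fold rule. No call turned its direction in 3499 values of other fits, and 50 values over 23 pairs changed sign with no call in either fit, none larger than 0.33. The cause of the moves below was not tested, except that a 2-fold rule calls less by construction. Of the 9 members called in adult mTEChi AireKO, 5 were called with RLE size factors, library size alone or DESeq2. Scaling by library size alone shifted the log2 fold changes of all genes by a median of -0.21 in neonatal mTEChi AireKO, and by -0.18 to -0.13 in 4 other comparisons. The neonatal mTEChi EEDcKO count went from 2 to 1 with RLE size factors or DESeq2. With library size alone the adult Aire by fraction interaction called 1, and in male libraries 0. Without the filter on low counts, mTEClo AireEEDdKO against EEDcKO called 7 and the EED by fraction interaction 2. In fits of only the groups compared, neonatal mTEChi EEDcKO called 5, AireKO 8, and mTEClo AireEEDdKO against EEDcKO 0. With age in days as a term, mTEChi AireEEDdKO against EEDcKO called 2. In libraries with mitochondrial counts, adult mTEClo AireKO called 5. With at least 2-fold change the counts were 0 in adult mTEChi AireKO, 6 between adult WT fractions, 0 in the adult Aire by fraction interaction, 1 in neonatal mTEChi EEDcKO, 2 in AireKO, 0 in AireEEDdKO against AireKO, 4 between Ctrl fractions, 0 in the EED by fraction interaction, 1 in Aire by age and 4 in the fraction gap by age.

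Leaving out 1 library gave 5 to 8 calls in adult mTEChi AireKO, 1 to 3 in adult mTEClo AireKO, 1 to 4 in the adult Aire by fraction interaction, 1 to 2 in neonatal mTEChi EEDcKO, 1 to 5 in AireKO, 0 to 1 in AireEEDdKO against AireKO, 0 to 3 in AireEEDdKO against EEDcKO, 1 to 8 in the same comparison in mTEClo, 3 to 8 between Ctrl fractions, 0 to 1 in the EED by fraction interaction and 1 to 2 in Aire by age. Such fits gave 8 to 9 calls between EEDcKO fractions, 6 to 10 between AireEEDdKO fractions, 4 to 8 in neonatal mTEClo EEDcKO and 6 to 7 in the fraction gap by age. The count was 10 in every such fit between the adult fractions of either genotype.

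With the replicate block, pairing left the counts at 10 in adult AireKO and 9 in neonatal AireEEDdKO fractions, where numbers pair the samples. Elsewhere samples of the same number were not taken as paired. Age and sex also match between some libraries of unequal number, as in the neonatal Ctrl fractions, and pairing of those was not tested. There the block by number gave 1 call in neonatal mTEChi EEDcKO, 0 in the EED by fraction interaction, 1 in Aire by age and 6 in adult mTEChi AireKO. It moved no other count by more than 1.5-fold. Low counts limit Cd86 in mTEClo, which was read at 0.505 CPM (2 counts) in the lowest library.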
